A study of Mus musculus with 576 samples.

Results

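Ribosome biogenesis factors were followed in single haematopoietic stem cells (HSCs) of mouse bone marrow. The set holds 36 named genes, found by matching their mouse Ensembl gene IDs to the 46078 genes counted, and all 36 were found. They were chosen by name, with earlier results of these data known. Each cell was a separate RNA-seq library, and reads were counted per gene.

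Ribosomes are assembled in the nucleolus, where RNA polymerase I transcribes the large ribosomal RNA precursor. Small nucleolar ribonucleoproteins (snoRNPs) guide the chemical marking and cutting of that RNA, and a chain of assembly factors folds it and joins it with ribosomal proteins into a small (40S) and a large (60S) subunit. HSCs are known for a low rate of protein synthesis, and the transcription factor MYC is known as a driver of many genes of ribosome biogenesis.

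LPS cells, sorted after exposure to the bacterial cell wall component lipopolysaccharide, and control cells (Ctrl in the labels) were both labelled p27 high, p27 low or p27 negative. That gave 6 groups, LPS p27 high, low and negative and control p27 high, low and negative. All cells came from femurs and tibias and passed the same sort for cKit and Sca1, with CD150 and without CD48, which enriches long-term HSCs. The series title presents p27 as a marker of G0, in which cells rest and do not divide. The sources used here do not state how p27 was read, the dose and duration of LPS, or the age and number of animals. Cells with at least 50000 gene reads were kept, 547 of 576. The LPS p27 high, low and negative groups kept 93, 90 and 92 cells, and the control groups of the same classes kept 84, 93 and 95.

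Because the labels tie no cell to an animal, each group counted as 1 sample. No difference between groups was tested, and no standard error or p-value was made from cells. Levels are the reads of a gene summed over a group per 1000000 gene reads (CPM). A log2 fold is the difference of 2 such levels on the log2 scale after 1 CPM was added. As a measure of spread, each fold was recomputed in 3 parts of the cells by cell number (1 to 32, 33 to 64 and 65 to 96). These parts are no replicates. A gene is called here where it differed by at least 1.5-fold, and the background is the 9744 genes with a mean of at least 10 CPM over the groups. All 36 factors had that mean.

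Some cells stood apart from the rest. In control cells numbered 1 to 32 the median p27 high, low and negative cell had 4.45, 4.88 and 7.13 gene reads per spike-in read, against 18.7 to 36.4 in the other parts of the control groups. LPS cells had 20.6 to 52.4 in all parts. Results are therefore also given for cells numbered 33 to 96 alone. Control and LPS cells were deposited as separate tables, so LPS and whatever else differed between the preparations cannot be told apart. Summed reads per group were 27775306 to 49018367 in LPS and 21714440 to 41583206 in control cells, and the median LPS cell had 284633, 287584 and 439918 reads against 229696, 224003 and 390369 in the matching control classes. Of 8 HSC markers all were detected in each group, with a summed level of 1383 to 2816 CPM in LPS and 1236 to 2598 CPM in control groups, lowest in p27 negative cells each time. The LPS sums were high mainly through Ly6a, with 1220, 1090 and 455 CPM in LPS p27 high, low and negative cells against 331, 122 and 49.7 CPM in control cells. The median log2 fold of the 8 with LPS was -0.43 in p27 high and -0.73 in p27 low cells, with 6 of 8 lower in each, and 0.25 in p27 negative cells, with 3 lower. In p27 low cells Hlf had 27.8 CPM with LPS against 164 CPM in control, Procr 25.1 against 93.1 CPM and Fgd5 0.324 against 43.8 CPM. The part of this shift in the results below was not tested.

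Markers of other blood cells were present at uneven levels. Under LPS the 7 megakaryocyte and platelet markers summed to 232 CPM in p27 high, 823 CPM in p27 low and 951 CPM in p27 negative cells, and the sums in the matching control classes were 285, 1198 and 1357 CPM, with Gp6 at 0 in each group. The 8 erythroid markers summed to 70.4 to 199 CPM in LPS groups and 80.8 to 670 CPM in control groups, with Hba-a1 under 1 CPM in each. The 10 neutrophil and monocyte markers summed to 461 to 810 CPM in LPS and 691 to 1137 CPM in control groups, mostly from Lyz2 and Prtn3, with Ctsg at 0. The 7 lymphocyte markers (30.9 to 45.7 CPM in LPS, 58.6 to 88.7 CPM in control groups) were nearly all Cd79b, and the 6 stromal and endothelial markers (45.2 to 90.8 CPM in LPS, 56.3 to 89.9 CPM in control groups) nearly all Pecam1. Cd3e, Cxcl12 and Lepr were at or near 0. The part of these cells in the results below was not tested.

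The promoters of the factors are shown first, because MYC and its partner MAX bind the E-box, CACGTG. In the RefSeq table (GRCm38.p6, 250 bases before to 50 after each start) 32 factors had a window, and 8 of the 32 (25%) held CACGTG, which reads the same on both strands. It was present in 7.15% of all 32851 windows, 8.09% of 27025 genes and 12.4% of 7451 genes with a mean of at least 10 CPM. The 8 were Utp20, Rrn3, Pes1, Tsr1, Nop2, Wdr43, Utp4 and Mybbp1a. Rrp12, Npm1, Fbl and Bop1 had no entry. A match is a string of letters and not a shown binding site. The windows of 4 factors follow, 5′ to 3′ on the strand of the gene, with each CACGTG in capitals. They lie at chr10:88826765-88827064 (minus strand) for Utp20, chr16:13780449-13780748 (plus) for Rrn3, chr11:3963725-3964024 (plus) for Pes1 and chr11:74897830-74898129 (plus) for Tsr1.
Utp20: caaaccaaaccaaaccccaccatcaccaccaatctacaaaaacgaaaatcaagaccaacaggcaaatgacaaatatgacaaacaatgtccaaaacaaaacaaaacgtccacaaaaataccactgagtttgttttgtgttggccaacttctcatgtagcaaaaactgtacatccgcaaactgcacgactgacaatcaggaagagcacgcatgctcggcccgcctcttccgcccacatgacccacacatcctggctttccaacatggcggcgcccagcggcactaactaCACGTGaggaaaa
Rrn3: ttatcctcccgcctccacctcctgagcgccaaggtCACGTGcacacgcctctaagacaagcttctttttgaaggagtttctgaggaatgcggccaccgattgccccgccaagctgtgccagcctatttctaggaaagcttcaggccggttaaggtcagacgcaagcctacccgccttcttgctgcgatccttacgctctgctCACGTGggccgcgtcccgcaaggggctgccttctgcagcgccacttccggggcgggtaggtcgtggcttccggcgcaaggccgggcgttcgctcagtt
Pes1: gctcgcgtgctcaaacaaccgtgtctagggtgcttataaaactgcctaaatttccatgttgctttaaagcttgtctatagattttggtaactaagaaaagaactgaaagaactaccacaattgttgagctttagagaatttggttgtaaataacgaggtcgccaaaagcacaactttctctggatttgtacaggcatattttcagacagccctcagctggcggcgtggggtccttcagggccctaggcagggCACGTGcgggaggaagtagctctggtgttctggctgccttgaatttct
Tsr1: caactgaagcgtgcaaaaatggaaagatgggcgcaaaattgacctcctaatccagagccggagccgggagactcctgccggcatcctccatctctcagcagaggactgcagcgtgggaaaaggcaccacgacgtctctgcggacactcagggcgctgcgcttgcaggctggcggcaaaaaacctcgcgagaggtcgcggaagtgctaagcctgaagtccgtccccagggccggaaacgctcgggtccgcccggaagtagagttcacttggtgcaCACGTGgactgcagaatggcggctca

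Rrn3 held CACGTG at base 36 and at base 203 of the window, while Utp20, Pes1 and Tsr1 held it near the start, at bases 288, 253 and 275. Factors with and without the box are compared below.

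A second shared feature lies inside the genes. Many snoRNAs are made from introns of host genes, and 7 of the 36 factors (19.4%) held at least 1 annotated snoRNA gene on their own strand, against 1.93% of 9116 protein-coding genes with a mean of at least 10 CPM. They were Nop56 with 5 snoRNA genes, Nop58 with 4, Ncl, Wdr43 and Gnl3 with 3 each, Tsr1 with 2 and Dkc1 with 1.

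Levels of the factors differed widely from each other. Per 1000 exon bases, the mean over the 6 groups was highest for Npm1 at 236 CPM, for Nhp2 at 208 CPM and for Ncl at 137 CPM. Npm1 encodes nucleophosmin, a histone chaperone and shuttle protein of the nucleolus, Nhp2 a small core protein of box H/ACA snoRNPs, and Ncl nucleolin, an RNA-binding organiser of the nucleolus. The lowest were Polr1a at 2.51, Fbl at 2.66, Noc3l at 3.85 and Utp20 at 4.15 CPM per 1000 exon bases. The box C/D methyltransferase gene Fbl was low beside its complex partners Nop56 (84.3) and Nop58 (27.1).

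Some of these counts are uncertain. Annotated copies at least 95% alike over at least 300 bases exist for Ddx18, Ddx21, Fbl, Nop56, Npm1, Pes1 and Wdr12, and reads could be split between them. The copy Gm14681 had 22504 reads beside 129348 of Npm1, Gm4879 had 8679 beside 25063 of Wdr12, and Gm16433 had 2835 beside 7609 of Ddx18. Whether counting used the strand is not given, and an opposite gene covered 32.3% of the exon bases of Tsr1 (Srr), 20.9% of Noc2l (Samd11) and 9.37% of Bysl (Ccnd3). Ccnd3 had 74771 reads in the kept cells, whereas Srr had 2521 and Samd11 2.

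**Figure D1:**
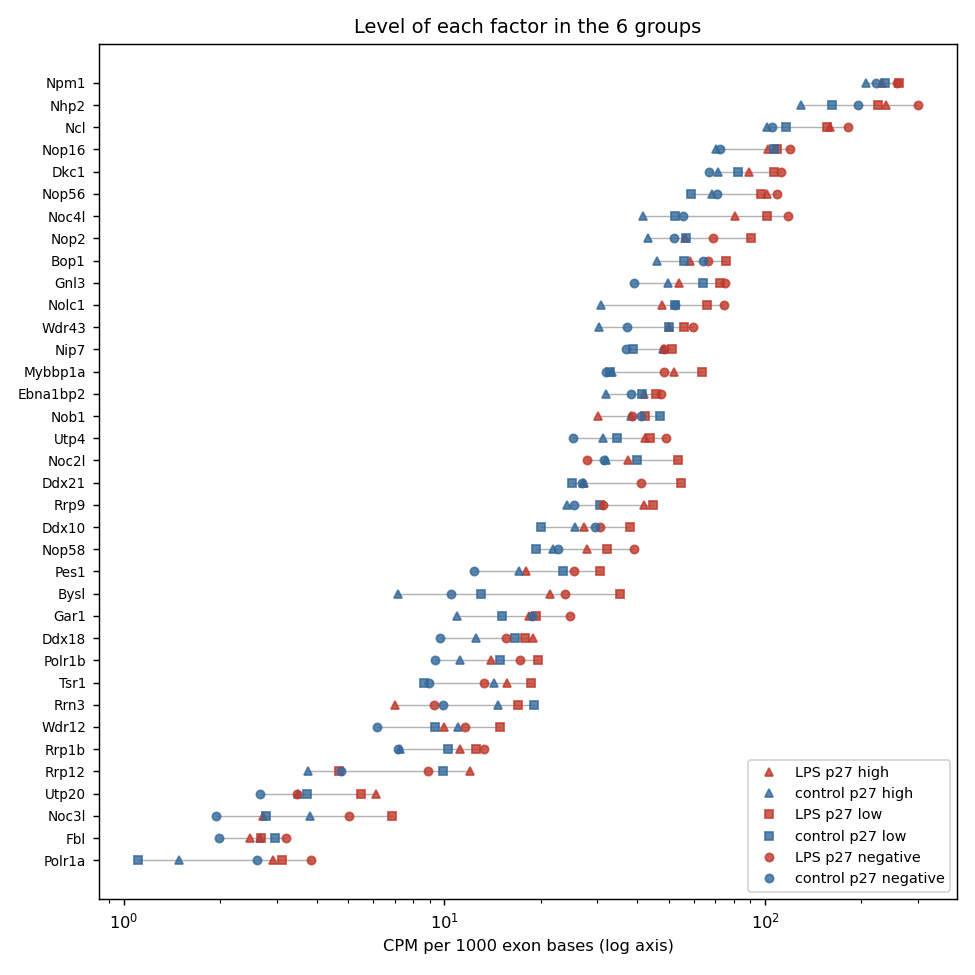
Level of each of the 36 factors in the 6 groups, as CPM per 1000 exon bases on a log axis, ordered by the mean. Triangles, squares and circles mark p27 high, low and negative cells, red marks LPS and blue control; the mean runs from 2.51 for Polr1a to 236 for Npm1, and red symbols lie to the right for most factors.

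LPS and control cells were compared to ask how the factors differ after an inflammatory signal. The factors took a larger share of reads in LPS cells of each p27 class. Their summed level was 7158 CPM (95% Poisson interval 7129 to 7186) in LPS p27 high cells against 5281 (5250 to 5311) in control p27 high cells, a ratio of 1.36. It was 8310 (8276 to 8344) against 6121 (6093 to 6149) in p27 low cells, also 1.36, and 8376 (8350 to 8402) against 5477 (5455 to 5500) in p27 negative cells, 1.53. Counting error is all that these intervals cover, and the spread over parts of the cells was wider, with ratios of 1.34 to 1.41, 1.32 to 1.4 and 1.34 to 1.75. Each of the 3 LPS groups lay above each of the 3 control groups. In cells numbered 33 to 96 the sums were 7184, 8403 and 7946 CPM in LPS p27 high, low and negative cells against 5396, 6097 and 5659 CPM in control cells, still without overlap.

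Single cells overlapped between the treatments. Per cell the factors took 914 to 12788 CPM in LPS p27 high cells with a median of 7037, against 992 to 10659 with a median of 4763 in control p27 high cells. In p27 low cells they took 1919 to 15817 CPM with a median of 8266 under LPS, against 1343 to 12400 with a median of 6017 in control cells. In p27 negative cells they took 2369 to 14372 CPM with a median of 8054 under LPS, against 62.9 to 11102 with a median of 4938 in control cells. Of the LPS cells, 75 of 93 in the p27 high class, 66 of 90 in the p27 low class and 77 of 92 in the p27 negative class lay above the median control cell of their class. The control p27 negative cell at 62.9 CPM had 97.9% mitochondrially encoded reads. At an equal 50000 reads per cell the median number of factors detected was 22, 23 and 26 of 36 in LPS p27 high, low and negative cells, against 17, 20 and 20 in control cells. Counted without thinning it was 27, 28 and 30 against 22, 25 and 26.

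**Figure D2:**
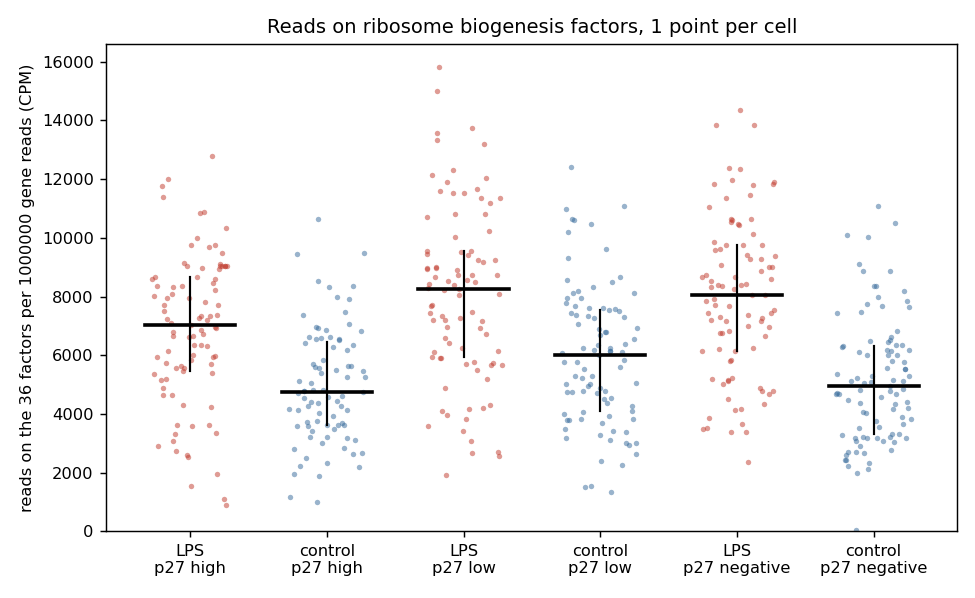
Reads on the 36 factors per 1000000 gene reads (CPM) in each kept cell, 1 point per cell, for LPS and control cells of each p27 class. Horizontal bars are medians and vertical bars run from the lower to the upper quartile; medians are 7037, 8266 and 8054 CPM in LPS p27 high, low and negative cells against 4763, 6017 and 4938 CPM in control cells, and the clouds overlap.

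Most of the individual factors shared the direction. In p27 high cells 31 of 36 were higher with LPS, where 44% of the background was, and 13 were higher by at least 1.5-fold (background 14.5%) and 1 lower (background 23.6%). In p27 low cells 32 were higher (background 39.4%), 12 by at least 1.5-fold (background 13.6%), and 1 was lower by as much (background 28.8%). In p27 negative cells 33 were higher (background 40.3%), 21 by at least 1.5-fold (background 11.5%), and 0 were lower by as much (background 21.4%). With cells numbered 33 to 96 alone, 10, 12 and 13 factors were at least 1.5-fold higher in the 3 classes (background 17.7%, 16.6% and 12.8%). At least 2-fold higher were 2, 5 and 4 in all kept cells (background 6.62%, 7.0% and 5.46%). The median log2 fold of the factors was 0.39, 0.42 and 0.62 in the 3 classes, where the median of all 9744 genes was -0.09, -0.17 and -0.13. It was 0.36, 0.45 and 0.42 in cells numbered 33 to 96, and 0.37, 0.39 and 0.59 in cells with at least 200000 reads. In all 3 parts of the cells 20, 18 and 21 factors were higher in p27 high, low and negative cells (background 15.2%, 14% and 14.6%).

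The amount per spike-in read moved much further. On that scale the median fold of the factors was 1.83 in p27 high, 1.69 in p27 low and 2.43 in p27 negative cells, and that of all 9744 genes was 1.32, 1.07 and 1.66. The factors thus lay 0.51, 0.61 and 0.77 above all genes per spike-in read, against 0.48, 0.58 and 0.75 on the CPM scale. Much of that rested on the control cells numbered 1 to 32, which stand apart in spike-in reads. In cells numbered 33 to 96 the median fold per spike-in read was 0.74 for the factors against 0.32 for all genes in p27 high cells, 0.47 against -0.13 in p27 low cells and 0.72 against 0.21 in p27 negative cells. The factors lay 0.43, 0.60 and 0.51 above all genes there. With TMM factors, which moved the median of all genes to 0.04, -0.01 and 0.00, the factors stood at 0.52, 0.57 and 0.75.

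**Figure D3:**
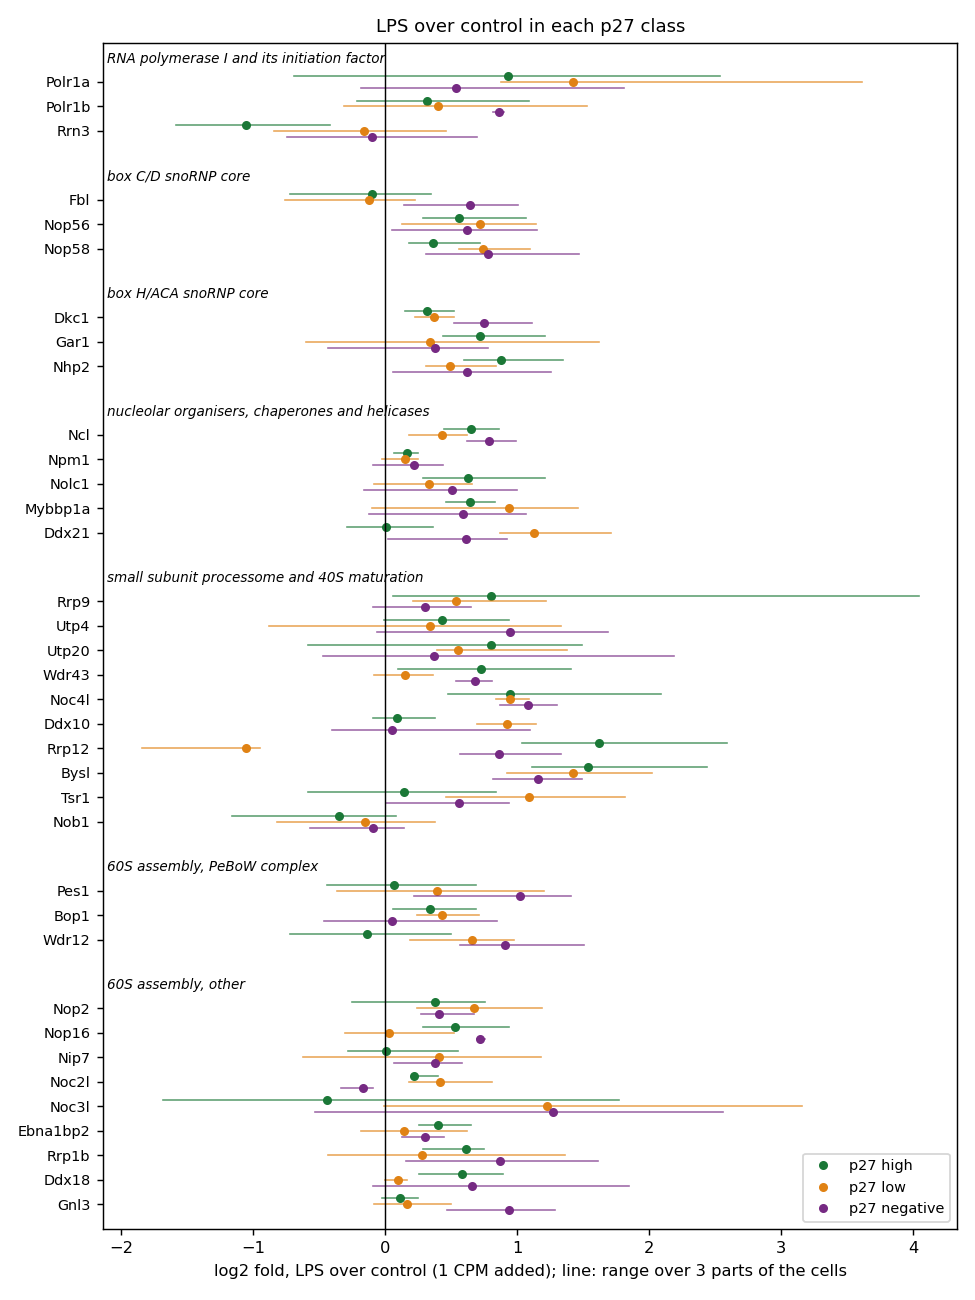
Log2 fold of LPS over control for each factor, grouped by role, with 1 point per p27 class. Lines run over the 3 parts of the cells by cell number; most points lie to the right of 0, and Bysl and Noc4l do in each class and part, whereas Rrn3 and Nob1 lie to the left in each class.

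A total of 29 factors were higher with LPS in all 3 classes, which 16.1% of the background was, and 3 were higher by at least 1.5-fold in all 3 (background 3.53%). These were Bysl, Noc4l and Mybbp1a. Rrn3 and Nob1 were lower in all 3 (background 30.8%). Fbl, Rrp12, Wdr12, Noc2l and Noc3l differed in direction between classes.

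The factors of RNA polymerase I were mixed. Polr1a (chromosome 6, 71909053 to 71984935 in mm10), the gene of the largest polymerase I subunit, had 34.6, 36.9 and 45.4 CPM in LPS p27 high, low and negative cells against 17.6, 13.1 and 30.9 CPM in control cells. All LPS values lay above all control values, with log2 folds of 0.93, 1.42 and 0.54. How many background genes lie apart in the same way was not counted, here or for the genes below. Over the parts the folds ran from -0.69 to 2.54 in p27 high, from 0.88 to 3.61 in p27 low and from -0.18 to 1.81 in p27 negative cells, so only the p27 low class kept its direction. In cells numbered 33 to 96 they were 0.53, 1.74 and -0.10, a change of direction in p27 negative cells. In control p27 high cells 1 cell gave 45.4% of the reads of Polr1a. Polr1b, the gene of the other large subunit, had 81.2, 114 and 99.6 CPM against 64.8, 86.5 and 54.2 CPM. Those 2 sets of values overlap across classes, although each class was higher with LPS.

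Rrn3 (chromosome 16, 13780708 to 13814839), the gene of the factor that brings polymerase I to the ribosomal DNA promoter, went the other way. It had 30.2 CPM in LPS p27 high cells against 63.6 CPM in control p27 high cells, a log2 fold of -1.05 (-1.58 to -0.42 over the parts). In p27 low cells it had 73.1 against 81.9 CPM and in p27 negative cells 40 against 42.8 CPM, and these folds of -0.16 and -0.10 changed sign between parts. In p27 high cells it was found in 35.5% of LPS and 45.2% of control cells at 50000 reads (exact 95% intervals 25.8 to 46.1 and 34.3 to 56.5).

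Most core proteins of the snoRNPs were higher in all 3 classes. Among box C/D proteins, Nop56 (chromosome 2, 130274430 to 130279313) had 415, 398 and 448 CPM in LPS p27 high, low and negative cells against 281, 241 and 291 CPM in control cells. Nop58 had 300, 347 and 419 CPM against 234, 207 and 243 CPM. For both genes all LPS values lay above all control values, and all 3 parts of each class were higher. In cells numbered 33 to 96 the log2 folds in p27 high, low and negative cells were 0.62, 0.6 and 0.26 for Nop56. For Nop58 they were 0.24, 0.57 and 0.4. Fbl had 10.4, 11.3 and 13.5 CPM against 11.2, 12.5 and 8.32 CPM, with overlapping values.

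Among box H/ACA proteins, which carry out pseudouridylation, Dkc1 (chromosome X, 75095854 to 75109777), the gene of the pseudouridine synthase dyskerin, had 367, 441 and 463 CPM in LPS p27 high, low and negative cells against 293, 340 and 275 CPM in control cells. Nhp2 (chromosome 11, 51619735 to 51623714) had 273, 259 and 345 CPM against 148, 185 and 223 CPM, log2 folds of 0.88, 0.49 and 0.62. Neither gene overlapped between treatments. In cells numbered 33 to 96 the folds of Nhp2 were 0.68, 0.56 and 0.32, and those of Dkc1 were 0.3, 0.38 and 0.81. At 50000 reads Nhp2 was found in 90.3% of LPS and 69% of control p27 high cells (exact intervals 82.4 to 95.5 and 58 to 78.7). The exon bases of Nhp2 overlap the opposite gene Rmnd5b over 3.84%. Gar1, the third protein of the complex in this set, had 31.4, 33.1 and 42.2 CPM against 18.7, 26 and 32.2 CPM.

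The 5 nucleolar organisers, chaperones and helicases took 2879, 3207 and 3323 CPM in LPS p27 high, low and negative cells, against 2040, 2348 and 2190 CPM in control cells, the largest part of the factor reads of any role. Ncl (chromosome 1, 86344719 to 86359400) alone had 1628, 1595 and 1849 CPM in those LPS classes, against 1035, 1188 and 1069 CPM in control cells. Its log2 folds were 0.65, 0.43 and 0.79, and it was higher in every part of each class. Per cell the median was 1555, 1331 and 1604 CPM under LPS against 896, 1076 and 864 CPM in control cells, with cells between 34.6 and 4176 CPM and between 5.65 and 3220 CPM. Npm1 differed far less, with 619, 699 and 686 CPM against 550, 631 and 590 CPM and folds of 0.17, 0.15 and 0.22.

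Mybbp1a (chromosome 11, 72441355 to 72451768), which encodes a nucleolar protein that binds MYB, had 302, 368 and 280 CPM in LPS p27 high, low and negative cells against 193, 191 and 185 CPM in control cells. All LPS values were above all control values, and the folds of 0.64, 0.94 and 0.59 held in all parts of the p27 high class only. In cells numbered 33 to 96 they were 0.64, 0.71 and 0.28. Nolc1, a chaperone of snoRNPs, had 189, 261 and 295 CPM against 122, 208 and 208 CPM. The RNA helicase gene Ddx21 (chromosome 10, 62580251 to 62602281) separated the classes in summed levels. It had 283 against 129 CPM in p27 low and 213 against 139 CPM in p27 negative cells, but 141 against 140 CPM in p27 high cells, where its fold of 0.01 was, with that of Nip7, the nearest to no change. Yet the median p27 high cell had 61.2 CPM of Ddx21 with LPS against 11.6 CPM in control, where 1 cell gave 23.6% of the reads. At 50000 reads Ddx21 was found in 69.9% against 52.4% of p27 high cells. The p27 high fold was 0.07 without the top cell of each group and 0.25 in cells numbered 33 to 96.

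The small subunit factors had median folds of 0.76 in p27 high, 0.54 in p27 low and 0.62 in p27 negative cells, and 9, 8 and 9 of the 10 were higher with LPS. Bysl (chromosome 17, 47599331 to 47611492), which encodes bystin, a late 40S assembly factor, had 82.4 CPM in LPS p27 high cells against 27.7 CPM in control p27 high cells. It had 136 against 50.2 CPM in p27 low cells and 91.6 against 40.3 CPM in p27 negative cells. The log2 folds of 1.54, 1.42 and 1.16 were positive in every part, and were 1.84, 1.38 and 1.09 in cells numbered 33 to 96. Bysl was found in 35.5%, 43.3% and 56.5% of LPS cells at 50000 reads, against 10.7%, 25.8% and 28.4% of control cells (exact intervals 25.8 to 46.1, 32.9 to 54.2 and 45.8 to 66.8 against 5.02 to 19.4, 17.3 to 35.9 and 19.6 to 38.6). These intervals cover the sampling of cells within 1 sample per group and do not compare the conditions.

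Noc4l (chromosome 5, 110648418 to 110653417), a factor of early 40S assembly, was nearly as uniform. It had 209, 263 and 306 CPM in LPS p27 high, low and negative cells against 108, 136 and 144 CPM in control cells, log2 folds of 0.95, 0.95 and 1.08. Every part of each class was higher. The median cell had 125, 197 and 234 CPM under LPS against 14.1, 8.3 and 60 CPM in control cells. In cells numbered 33 to 96 the fold in p27 high cells was 0.54.

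Rrp12 (chromosome 19, 41862851 to 41896173), known from yeast for the export of pre-ribosomes, differed in direction between the classes. In p27 high cells it had 52.1 CPM with LPS against 16.3 CPM in control. In p27 negative cells it had 38.5 against 20.7 CPM, but 20.3 against 43.1 CPM in p27 low cells. The log2 folds were 1.62 (1.04 to 2.59), 0.86 (0.57 to 1.33) and -1.05 (-1.84 to -0.95). It is a gene of few cells, found at 50000 reads in 29%, 17.8% and 28.3% of LPS cells of the p27 high, low and negative classes, against 10.7%, 19.4% and 14.7% of control cells. In each group 1 cell gave 17.3% to 36.4% of its reads, and without the top cell of each group the fold was 2.10 in p27 high and -0.91 in p27 low cells.

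Other small subunit factors were less uniform. Tsr1, a factor of late 40S maturation, had 71.5 CPM in LPS p27 low cells against 33.2 CPM in control p27 low cells, a fold of 1.09 (0.46 to 1.82), against 0.56 in p27 negative and 0.14 in p27 high cells. Utp4, a component of the small subunit processome, had 169 CPM in LPS p27 negative cells against 87.1 CPM in control p27 negative cells, a fold of 0.95 that became 0.48 in cells numbered 33 to 96. Folds of the processome components Rrp9 (0.80, 0.54 and 0.30), Utp20 (0.80, 0.55 and 0.37) and Wdr43 (0.73, 0.15 and 0.68) were positive in each class, p27 high, low and negative in turn. The helicase gene Ddx10 had folds of 0.09, 0.92 and 0.05, so 1 class stood out. Nob1, which encodes the nuclease of the last cut in small subunit RNA, had 105, 147 and 134 CPM in LPS against 133, 164 and 143 CPM in control cells, and its folds of -0.35, -0.15 and -0.09 changed sign between parts.

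Large subunit factors had their highest median fold in p27 negative cells. It was 0.91 there for the PeBoW complex, against 0.07 in p27 high and 0.43 in p27 low cells, and 0.66 for the other 60S factors, against 0.38 and 0.28. The PeBoW complex is made of the products of Pes1, Bop1 and Wdr12, which process the large subunit RNA. Pes1 (chromosome 11, 3963975 to 3980004) had 76.9 against 37.4 CPM in p27 negative cells, LPS against control, 92.7 against 70.7 CPM in p27 low and 54.4 against 51.7 CPM in p27 high cells. Wdr12 had 139 against 73.7 CPM, 178 against 112 CPM and 119 against 132 CPM in the same classes. In summed levels both genes differed least in p27 high cells, with folds of 0.07 and -0.14 there that changed sign between parts. From the mean CPM of single cells the order did not hold for Pes1, with 0.64, 0.45 and 1.01 in p27 high, low and negative cells. It held for Wdr12, with -0.09, 0.40 and 1.12. At 50000 reads Pes1 was found in 47.3% of LPS and 28.6% of control p27 high cells. Bop1 had folds of 0.34, 0.43 and 0.05 in p27 high, low and negative cells, the last the nearest to no change in its class with Ddx10. In control p27 negative cells, however, 1 cell gave 18.8% of the reads of Bop1. The fold in p27 negative cells was 0.27 without the top cell of each group and 0.45 in cells numbered 33 to 96. The median p27 negative cell had 197 CPM of Bop1 with LPS against 26.7 CPM in control.

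Gnl3 (chromosome 14, 31012433 to 31019152), the gene of the GTPase nucleostemin, had 457 CPM in LPS p27 negative cells against 238 CPM in control p27 negative cells, a fold of 0.94 (0.47 to 1.29). In p27 high and low cells it had 328 against 305 CPM and 441 against 391 CPM, and those folds changed sign between parts. Noc3l reached 1.23 in p27 low and 1.27 in p27 negative cells, at 27.2 against 11 CPM and 20 against 7.7 CPM, with folds of 0.96 and 0.65 in cells numbered 33 to 96. In p27 high cells it had 10.8 against 15.1 CPM, but 1 control cell gave 82.6% of that group's reads and the fold was 1.37 without the top cells. Noc2l, a relative of Noc3l in name and in nucleolar location, had folds of 0.22, 0.42 and -0.17 in p27 high, low and negative cells.

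The remaining large subunit factors were higher in each class. Nop2, an RNA methyltransferase, had folds of 0.38, 0.67 and 0.41, Nop16 had 0.53, 0.03 and 0.72, and Nip7 had 0.01, 0.41 and 0.38 in p27 high, low and negative cells. Ebna1bp2 had 0.40, 0.14 and 0.30, Rrp1b had 0.61, 0.28 and 0.87, and the helicase gene Ddx18 had 0.58, 0.10 and 0.66. Nop16 at 201 against 197 CPM was the factor nearest to no change in p27 low cells.

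LPS folds of factors with and without CACGTG in the promoter window, and with and without a snoRNA gene inside, were set side by side. Their differences were not tested. The 8 factors with CACGTG had a median log2 fold of 0.40 in p27 high, 0.47 in p27 low and 0.58 in p27 negative cells, and the 24 without it 0.47, 0.42 and 0.64. The 7 snoRNA hosts had 0.36, 0.43 and 0.75 and the other 29 factors 0.40, 0.41 and 0.59. Rrn3, whose window printed above holds CACGTG at 2 places, and Mybbp1a, which holds 1, had folds of opposite sign.

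Related lists were set beside the factors. Of 130 other ribosome biogenesis factors listed, 123 had a mean of at least 10 CPM, and their median LPS fold was 0.11, 0.08 and 0.20 in p27 high, low and negative cells, with 72, 70 and 85 higher (58.5%, 56.9% and 69.1%, against 44%, 39.4% and 40.3% of the background). At least 1.5-fold higher were 21, 22 and 26 (17.1%, 17.9% and 21.1%, against 14.5%, 13.6% and 11.5% of the background). The shares in p27 high and low cells are near the background. Lower by as much were 12, 11 and 4 (9.76%, 8.94% and 3.25%, against 23.6%, 28.8% and 21.4%). Among them Pwp2, a processome component, had a fold of 1.71 in p27 high cells, Nol10 one of 1.52 in p27 low cells and Urb2 one of 1.98 in p27 negative cells. Taf1a, a subunit of the promoter selectivity factor of polymerase I, was lower in p27 high and low cells with folds of -2.60 and -1.88. Those other factors were thus above all genes by less than the 36 were, and the contrast of the lists was not tested. Both lists were chosen with earlier results of these data known. For 72 cytosolic ribosomal protein genes the median was -0.01, 0.05 and 0.08, with summed levels of 23633, 23649 and 21218 CPM in LPS against 24077, 23222 and 21015 CPM in control cells.

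The MYC network, of which 10 of 11 genes had the mean level, had medians of -0.50 (-0.64 to -0.24 over the parts), -0.19 (-0.42 to -0.20) and -0.30 (-0.55 to 0.44) in p27 high, low and negative cells. All genes had -0.09, -0.17 and -0.13, so the p27 low value is close to that of all genes, and the p27 negative one changed sign between parts. Myc itself had 414, 529 and 372 CPM in LPS against 479, 640 and 324 CPM in control cells, and Mycn 212, 176 and 187 CPM against 284, 291 and 162 CPM. Both were lower with LPS in p27 high and low cells and higher in p27 negative cells. Mxd1, a MAX partner that opposes MYC, had 45.6, 64.5 and 41.7 CPM in LPS against 25.5, 35.7 and 19.8 CPM in control cells, with folds of 0.81, 0.83 and 1.03. Mga, another MAX partner, was lower with a fold of -0.95 in p27 high cells.

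**Figure D4:**
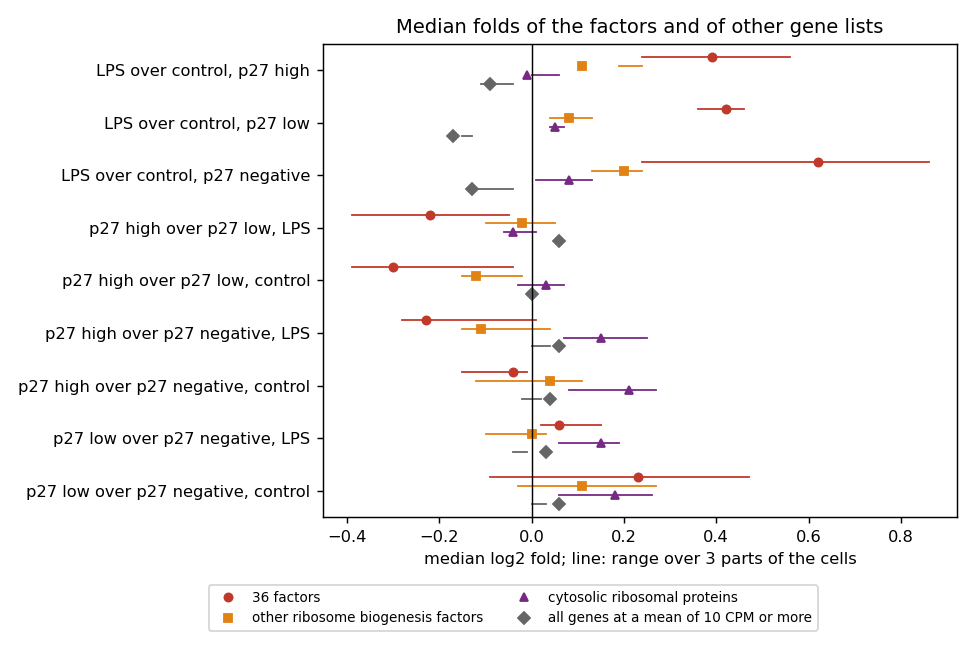
Median log2 fold of the 36 factors, of 123 other ribosome biogenesis factors, of 72 cytosolic ribosomal protein genes and of all 9744 genes in the 9 comparisons. Lines run over the same median in 3 parts of the cells, and the whole-group median may lie outside them; the factors stand at 0.39, 0.42 and 0.62 with LPS and at -0.22 and -0.30 between p27 high and low cells.

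The p27 classes were compared within each treatment to ask how cells with more of the G0 marker differ. p27 high cells had the smallest share of reads on the factors in each treatment, in the whole groups and in each of the 3 parts. Against p27 low cells the ratio of summed levels was 0.861 in LPS cells (7158 against 8310 CPM, 0.81 to 0.928 over the parts) and 0.863 in control cells (5281 against 6121 CPM, 0.793 to 0.964). Of the p27 high cells 30 of 93 under LPS and 25 of 84 in control marrow lay above the median p27 low cell. Against p27 negative cells the ratio was 0.855 in LPS cells (0.784 to 0.95) and 0.964 in control cells (0.937 to 0.97). Between p27 low and negative cells the ratios were 0.992 (0.897 to 1.09) in LPS and 1.12 (0.981 to 1.19) in control cells, and over the parts they lay on both sides of 1.

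Between p27 high and low cells, 30 of 36 factors were lower in p27 high cells under LPS, where 45.5% of the background was, and 26 were in control cells, where 50% was. At least 1.5-fold lower were 6 under LPS (background 12.6%) and 5 in control cells (background 15.4%), and 1 was higher by as much in each (background 20.4% and 17.3%). The medians were -0.22 and -0.30, against 0.06 and 0.00 for all genes, and -0.25 and -0.21 in cells numbered 33 to 96. The shift was thus one of many small differences, and the number of factors past 1.5-fold was near or below the background share. In all 3 parts 11 factors were lower in each treatment (background 13.5% under LPS and 15.3% in control cells). In cells numbered 65 to 96 the medians were only -0.05 and -0.04.

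Under LPS the factors with the largest differences between p27 high and low cells were Rrp12, Rrn3, Noc3l and Ddx21. Rrn3 had 30.2 against 73.1 CPM (-1.25, -1.78 to -0.75 over the parts), Ddx21 141 against 283 CPM (-1.0, -1.45 to -0.44) and Noc3l 10.8 against 27.2 CPM (-1.25, -1.98 to -0.61). For Rrn3, 1 LPS p27 low cell gave 31.6% of the reads. Rrp12 was higher, at 52.1 against 20.3 CPM with a fold of 1.32 (0.36 to 4.4), and 2.18 in cells numbered 33 to 96. Ncl, at 1628 against 1595 CPM, was nearest to no change.

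In control cells the largest differences between the same classes were those of Rrp12, Bysl, Nolc1 and Wdr43, all lower in p27 high cells. Nolc1 (chromosome 19, 46075863 to 46085530) had 122 against 208 CPM (-0.77, -1.35 to -0.56) and Wdr43 145 against 240 CPM (-0.73, -1.29 to -0.10). The fold of Wdr43 was -0.32 in cells numbered 33 to 96. Rrp12 with 16.3 against 43.1 CPM and Bysl with 27.7 against 50.2 CPM changed sign between parts. Mybbp1a, at 193 against 191 CPM, was nearest to no change.

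**Figure D5:**
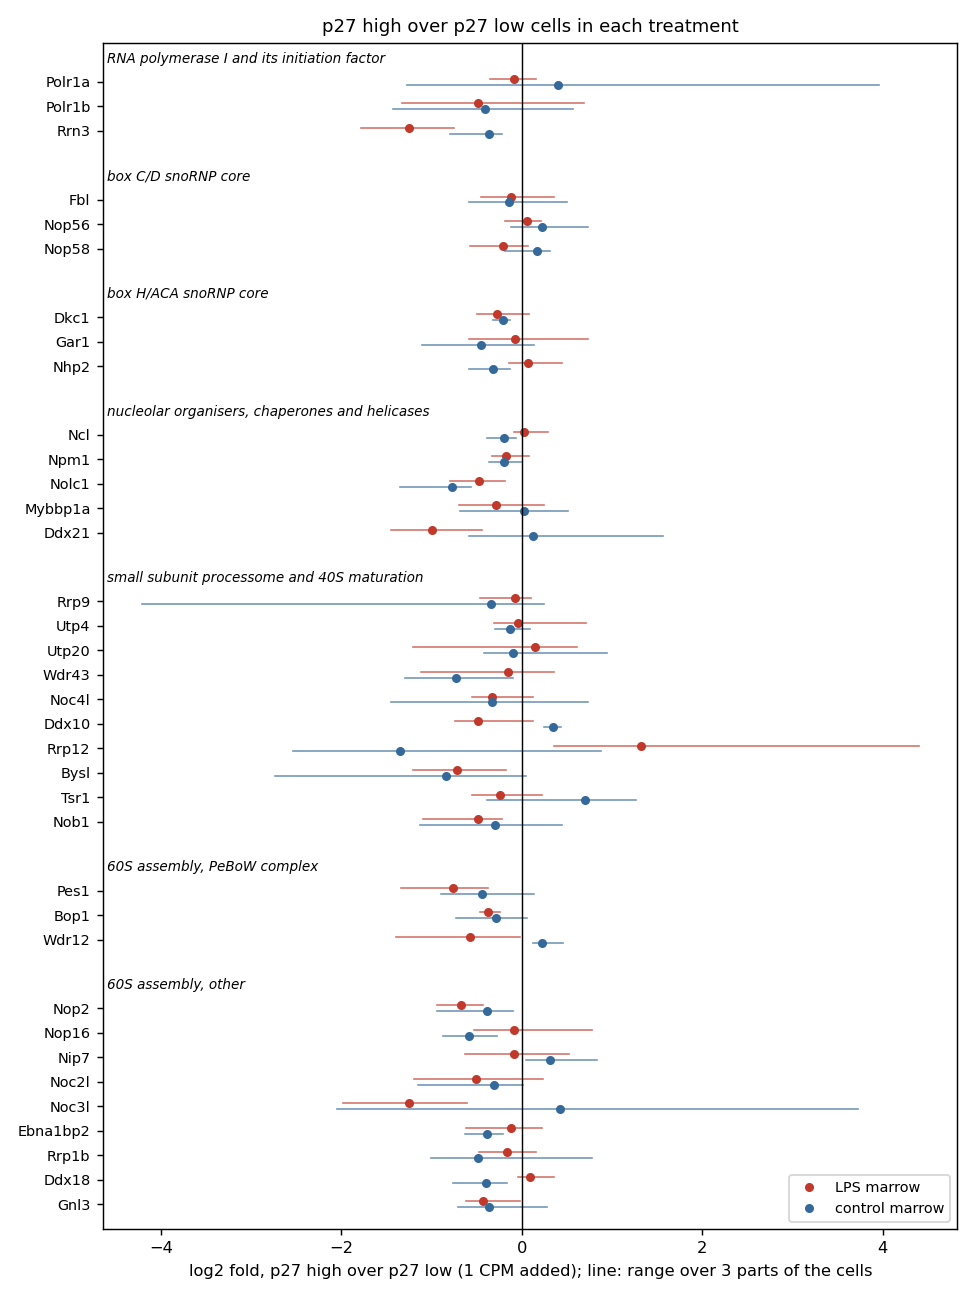
Log2 fold of p27 high over p27 low cells for each factor, grouped by role, in LPS (red) and control (blue) marrow. Lines run over the 3 parts of the cells by cell number; points lie to the left of 0 for 30 of 36 factors under LPS and for 26 in control marrow, mostly within 1 log2 unit.

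Between p27 high and p27 negative cells the medians were -0.23 under LPS and -0.04 in control cells, against 0.06 and 0.04 for all genes, and per spike-in read -1.04 and -0.48, where all genes stood at -0.73 and -0.38. Restricted to cells numbered 33 to 96 these were -0.90 and -0.84, with all genes at -0.68 and -0.77. In cells with at least 200000 reads the control median was 0.06. Lower in p27 high cells were 28 of 36 under LPS (background 45.7%) and 19 in control cells (background 47.3%). At least 1.5-fold lower were 3 under LPS (background 14.9%) and 4 in control cells (background 17.1%), and at least 1.5-fold higher were 1 (background 20.9%) and 3 (background 22%). The factors past 1.5-fold were thus fewer than the background share in both treatments.

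Nolc1 was lower in p27 high than in p27 negative cells in each treatment, with 189 against 295 CPM under LPS (-0.64, -0.97 to -0.13) and 122 against 208 CPM in control cells (-0.76, -1.38 to -0.58). Its median cell had 143 against 230 CPM under LPS and 12.9 against 121 CPM in control cells. Under LPS the other large differences were those of Noc3l (-0.83), Utp20 (0.80, 62.3 against 35.3 CPM), Ddx21 (-0.59, 141 against 213 CPM), Noc4l (-0.55, 209 against 306 CPM) and Pes1 (-0.49, 54.4 against 76.9 CPM). Noc3l, Utp20 and Pes1 changed sign between parts and Ddx21 and Noc4l did not, and Nip7 was nearest to no change at 151 CPM in both classes.

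In control cells Wdr12 had 132 CPM in p27 high against 73.7 CPM in p27 negative cells (0.83, 0.71 to 0.97). Polr1a with 17.6 against 30.9 CPM (-0.78, -2.12 to -0.19) and Gar1 with 18.7 against 32.2 CPM (-0.75, -1.02 to -0.64) were lower. Tsr1 had 54.6 against 34.3 CPM, with parts on both sides of 0. The fold of Noc3l was 0.89, but -1.11 without the top cell of each group. Ddx21, at 140 against 139 CPM, was nearest to no change.

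Between p27 low and p27 negative cells the medians were 0.06 under LPS and 0.23 in control cells, against 0.03 and 0.06 for all genes, but per spike-in read -0.84 and -0.13, where all genes stood at -0.86 and -0.29. Restricted to cells numbered 33 to 96 these were -0.65 and -0.38, with all genes at -0.81 and -0.49. Higher in p27 low cells were 19 of 36 under LPS (background 52.4%) and 26 in control cells (background 53.8%). At least 1.5-fold higher were 3 under LPS (background 15.8%) and 7 in control cells (background 19.4%), and 1 was lower by as much in each (background 16.8% and 15%). These shares are near or below the background.

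The summed level of Rrn3 was higher in p27 low than in p27 negative cells in each treatment and part. Under LPS it was 73.1 against 40 CPM (0.85, 0.74 to 0.86). In control cells it was 81.9 against 42.8 CPM (0.92, 0.70 to 1.1). The median cell was lower for Rrn3, with 6.91 against 14.7 CPM under LPS and 6.7 against 10.8 CPM in control cells. At 50000 reads Rrn3 was found in 43.3% against 47.8% of cells under LPS and 39.8% against 45.3% in control. Under LPS Noc2l had 153 against 80.1 CPM (0.92), Utp20 55.9 against 35.3 CPM (0.65), Bysl 136 against 91.6 CPM (0.57) and Rrp9 131 against 91.5 CPM (0.51), each higher in all parts. The median cell had 65.9 against 22.8 CPM for Noc2l and 3.95 against 2.41 CPM for Utp20. For Rrp9 it had 58.8 against 59 CPM, and for Bysl it was lower, at 4.46 against 53.7 CPM. Rrp12, with 20.3 against 38.5 CPM (-0.89), had parts on both sides of 0 and a fold of -1.74 in cells numbered 33 to 96. In control cells Ddx18 had 41.2 against 24 CPM (0.76, 0.30 to 1.6), while Polr1a (13.1 against 30.9 CPM), Rrp12 (43.1 against 20.7 CPM), Pes1 (70.7 against 37.4 CPM) and Gnl3 (391 against 238 CPM) changed sign between parts. The fold of Pes1 of 0.90 became 0.17 in cells numbered 33 to 96. Npm1 under LPS, at 699 against 686 CPM, and Nolc1 in control cells, at 208 CPM in both classes, were nearest to no change.

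Mitotic genes differed between the groups as well. The 30 listed G2/M genes summed to 346, 239 and 6898 CPM in the LPS p27 high, low and negative groups, against 348, 537 and 7742 CPM in the control groups. p27 negative control cells, with the highest mitotic level, had 5477 CPM of factor reads, against 6121 CPM in p27 low and 5281 CPM in p27 high control cells. Under LPS p27 negative cells had 8376 CPM, against 8310 CPM in p27 low and 7158 CPM in p27 high cells. The part of the cell cycle in the class differences was not tested.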

How the data were processed

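Single-cell RNA-seq libraries of 576 mouse HSCs were used, made with the Picelli protocol and Nextera XT, per the labels. The authors deposited a whole-number count of reads for each gene and cell, with GSNAP and HTSeq (0.6.0) on mm10 named in the submitters' processing notes. The annotation release, the strand setting and read filters are not stated there. Of all reads 34.1% lay on genes, 2.06% on spike-ins and 52.7% did not align, and spike-in and summary entries stayed out of totals.

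Cells with at least 50000 gene reads were kept, leaving out 29. Counts were summed per group, scaled to CPM and compared as log2 after adding 1 CPM. With 1 sample per group no test was made. Shares of cells came from counts thinned to 50000 reads (Clopper-Pearson intervals), and summed levels carry exact Poisson intervals, which cover counting error only, since reads are not molecules. No clustering or doublet removal was done. Symbols and coordinates came from GENCODE M21 (45143 of 46078 genes named), promoters from RefSeq (GRCm38.p6), and copies from BLAST 2.17.0. Alternatives changed the scaling (TMM from edgeR 4.0.16, spike-ins), the cells used, the CPM added and the fold limit. Python 3.11.15 with pandas 2.3.3 and scipy 1.17.1 was used. The fold calculation was checked on simulated data for control p27 high over p27 negative cells, and the other steps were not simulated.

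The members, lists and alternatives were chosen with earlier results of these data known, and the alternatives of cells numbered 33 to 96, by CPM and per spike-in read, after the spike-in reads had been seen. Values of both groups are given for the members with the largest absolute log2 folds in each comparison (up to 6, or up to 4 between p27 high and low) and for the one nearest to no change. Other members are given by role, and up to 4 genes per list are named by their folds, except Myc and Mycn, named for their role.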

Additional observations from a re-analysis of the deposited data

Results flagged for a closer look

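Of the 36 factors, 4 had folds of opposite sign in groups under the same contrast, with every part of the cells on its own side of 0. The share of background genes that meet this rule was not counted, so 4 of 36 is not shown to be unusual. These differences were not tested, since each group is 1 sample and the parts are not replicates.

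For Rrp12 the log2 fold of LPS over control was 1.62 in p27 high, -1.05 in p27 low and 0.86 in p27 negative cells. In cells numbered 33 to 96 it was 1.97 in p27 high and -1.25 in p27 low cells. Noc2l had folds of 0.22 in p27 high and 0.42 in p27 low cells but -0.17 in p27 negative cells, all small. An opposite gene, Samd11, with 2 reads in the kept cells, covers 20.9% of its exon bases.

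Between the treatments, Gnl3 differed in p27 high over p27 negative cells, with -0.48 under LPS and 0.35 in control cells, and with -0.35 and 0.33 in cells numbered 33 to 96. The median cell did not show this, since for Gnl3 it was lower in the p27 high class in both treatments. It had 262 against 399 CPM under LPS and 87 against 175 CPM in control cells. Wdr12 differed in p27 high over p27 low cells, with -0.57 under LPS and 0.23 in control cells, and with -0.24 and 0.29 in cells numbered 33 to 96. From the mean CPM of single cells these folds were -0.35 and 0.14. The median cell went the other way in each treatment. It had 59.7 CPM in p27 high against 51.5 CPM in p27 low cells under LPS, and 47.6 against 52.7 CPM in control cells. A near-identical copy of Wdr12, Gm4879, had 8679 reads.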

How the results depend on the processing

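Direction held under all alternatives run for the median fold of LPS over control and of p27 high over p27 low cells. Per spike-in read the medians with LPS were 1.83 (p27 high), 1.69 (low) and 2.43 (negative), but 0.74, 0.47 and 0.72 in cells numbered 33 to 96, without the control cells that stand apart in spike-in reads. With TMM factors p27 low cells had 0.57. Cells numbered 1 to 32 gave 0.56 in p27 high and 0.36 in p27 low cells, and cells numbered 65 to 96 gave 0.24 in p27 negative cells and -0.04 for p27 high over low in control cells. p27 high over p27 negative in control cells was near 0 and had -0.13 with TMM factors, -0.48 per spike-in read, -0.15 in cells numbered 65 to 96 and 0.06, a reversal, in cells with at least 200000 reads. Under LPS that contrast had -1.04 per spike-in read and 0.01 in cells numbered 65 to 96. p27 low over p27 negative had -0.13 per spike-in read and -0.09 in cells numbered 65 to 96 in control cells. Under LPS it had -0.84 per spike-in read, a reversal, 0.15 in cells numbered 33 to 64 and 0.17 in cells numbered 33 to 96. Per spike-in read in cells numbered 33 to 96, p27 high over p27 negative had -0.90 under LPS and -0.84 in control cells, p27 low over p27 negative -0.65, a reversal, and -0.38, and p27 high over low -0.48 in control cells. For the spike-in scale the shift of all genes is given above. For the others the cause was not tested.

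Counts of factors past 1.5-fold moved with the scale. Per spike-in read 35, 35 and 36 factors were higher with LPS in the classes p27 high, low and negative, against 13, 12 and 21 on the CPM scale, but so were 84.9%, 73.8% and 93.6% of all genes. With cells numbered 33 to 96 alone they were 25, 14 and 25, with 33.5%, 17.2% and 23.9% of all genes. Lower in p27 high than in p27 negative cells under LPS and in control were 30 and 12 per spike-in read, and 29 and 28 with cells numbered 33 to 96, against 3 and 4 on the CPM scale. Lower in p27 low than in p27 negative cells were 24 and 6, and 20 and 8 with cells numbered 33 to 96, against 1 and 1. Of all genes per spike-in read, 60%, 37.1%, 70.7% and 30.4% were lower in these 4 comparisons. With cells numbered 33 to 96 these shares were 56.4%, 60.6%, 65.4% and 44%. Lower in p27 high than in p27 low control cells were 12 per spike-in read with cells numbered 33 to 96, against 5 on the CPM scale. On that spike-in scale 30.6% of all genes were lower. At a 2-fold limit 2, 5 and 4 were higher with LPS. On the CPM scale with cells numbered 33 to 96, 13 rather than 21 were higher with LPS in p27 negative cells. There, 3 rather than 1 were higher in p27 high than in p27 low control cells, and 3 rather than 1 in p27 high than in p27 negative LPS cells. Of all genes 12.8%, 20.1% and 21.1% were higher in these comparisons. Other counts that moved by over 1.5 times were of 7 factors or fewer.

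No paired analysis was possible because the numbers in the labels only name cells and no test was made. The labels name no animal and no plate, so with 1 sample per group the part of either in the group differences cannot be told. Reads carry no molecular identifiers. Noc3l rests on few cells, with a read in 7.14% to 27.2% of cells per group at 50000 reads.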

Other observations

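Ribosomal protein genes were set beside the factors across the p27 classes. The 72 cytosolic ribosomal protein genes had a median log2 fold of p27 high over p27 negative cells of 0.15 under LPS (0.07 to 0.25 over the parts) and 0.21 in control cells (0.08 to 0.27), with 57 and 59 of 72 higher (79.2% and 81.9%, against 54.3% and 52.5% of all genes). The 36 factors had -0.23 and -0.04, the last with a value of 0.06 in cells with at least 200000 reads. For p27 low over p27 negative cells both lists were positive, with 0.15 under LPS and 0.18 in control cells for the ribosomal protein genes and 0.06 and 0.23 for the factors. Summed, the ribosomal protein genes took 23633 CPM in LPS p27 high against 21218 CPM in LPS p27 negative cells, and 24077 CPM in control p27 high against 21015 CPM in control p27 negative cells. Of single genes, Rps6 had a fold of 0.65 under LPS and Rps27 one of 1.36 in control cells. Between p27 high and low cells the medians were -0.04 under LPS and 0.03 in control cells for the ribosomal protein genes, and -0.22 and -0.30 for the factors. The contrast between the lists was not tested.

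In the MYC network, Mxd3, a MAX partner, was the gene that differed most between classes. It had 0.0901 CPM in LPS p27 high against 24.5 CPM in LPS p27 negative cells, and 0.875 CPM in control p27 high against 44.4 CPM in control p27 negative cells, folds of -4.55 and -4.60. The G2/M genes differed in the same classes, with median folds of -4.92 and -5.15.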
